A study of Mus musculus with 10 samples.

Results

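The cytosolic heat shock response genes described here are Hspa1a, Hspa1b, Hspa8, Hsph1, Hspb1, Hspb8, Cryab, Dnajb1, Bag3 and Hsp90aa1, 10 of the 55359 genes in the deposited table, chosen by gene symbol. They were followed in bulk kidney RNA of male mice in 2 groups of 5 libraries. The sham group had undergone sham surgery. The IRI group (ischaemia-reperfusion injury, a model of acute kidney injury) had undergone 30 min of kidney ischaemia and 24 h of reperfusion. The sources used here give no strain, age, diet, side of the injury or interval from sham surgery to sampling. The labels do not say that each library came from a separate mouse, and p-values therefore reflect only the library-to-library spread, which may be technical.

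Heat shock proteins are chaperones that bind unfolded proteins. In unstressed cells the transcription factor HSF1 is held inactive by chaperones; when unfolded proteins accumulate it forms trimers and binds heat shock elements, repeats of the unit GAA in alternating orientation, upstream of chaperone genes. HSP70 proteins (Hspa1a and Hspa1b, inducible; Hspa8, constitutive) fold clients with J-domain partners such as Dnajb1 and with nucleotide exchange factors such as Hsph1 and Bag3. Small heat shock proteins (Hspb1, Hspb8, Cryab) hold unfolded clients without ATP, and Hsp90aa1 encodes the inducible cytosolic HSP90. In the kidney, ATP depletion during ischaemia disrupts the cytoskeleton and protein folding of tubule cells, and induction of HSP70 and HSP27 (the product of Hspb1) is a known part of the injury response.

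The libraries held 13147899 to 18603272 counts each. The injury labels were checked with Lcn2 and Havcr1, which encode secreted and surface proteins of injured tubules. Lcn2 lay between 0.23 and 1.86 FPKM in sham and between 852 and 2226 FPKM in IRI, and Havcr1 between 0.33 and 0.73 and between 136 and 722 FPKM. FPKM is fragments per kilobase of gene, scaled to the counts of the library. IRI replicate 1 stood apart from the other 4 IRI libraries: mitochondrial rRNA took 2.31% of its counts against 0.214% to 0.450% in IRI replicates 2 to 5 and 0.230% to 0.267% in sham, and the summed FPKM of 6 proximal tubule genes was 857 against 134 to 298 in IRI replicates 2 to 5 and 1576 to 2200 in sham. The test of each heat shock gene is therefore given with and without this library. In bulk tissue, fewer cells of a type and less RNA per cell cannot be told apart.

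Upstream sequences of the members are shown first because HSF1 acts there. RefSeq promoter sequences (mouse build GRCm38.p6) matched 7 of the 10 genes: Hspa1a, Hspa1b, Hsph1, Hspb1, Hspb8, Dnajb1 and Bag3. The 250 bases before the transcription start were searched on both strands. Capitals mark a 2-unit heat shock element (GAANNTTC or TTCNNGAA) and the CCAAT box (CCAAT, or ATTGG on the other strand). Hspa1a (chr17:34972157-34972406, minus strand) had the highest fold change over all libraries, Hspb1 (chr5:135887669-135887918, plus strand) was high in every IRI library, and Hsph1 (chr5:149636337-149636586, minus strand) did not pass the test.
Hspa1a: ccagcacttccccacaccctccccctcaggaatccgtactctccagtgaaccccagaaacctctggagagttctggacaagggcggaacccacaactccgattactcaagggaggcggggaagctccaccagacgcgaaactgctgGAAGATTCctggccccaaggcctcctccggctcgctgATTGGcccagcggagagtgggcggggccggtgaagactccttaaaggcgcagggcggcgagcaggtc
Hspb1: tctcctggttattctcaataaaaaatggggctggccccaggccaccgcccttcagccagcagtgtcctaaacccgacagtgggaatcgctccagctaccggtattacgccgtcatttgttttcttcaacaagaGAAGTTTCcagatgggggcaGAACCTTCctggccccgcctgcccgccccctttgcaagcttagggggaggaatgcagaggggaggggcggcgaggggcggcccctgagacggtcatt
Hsph1: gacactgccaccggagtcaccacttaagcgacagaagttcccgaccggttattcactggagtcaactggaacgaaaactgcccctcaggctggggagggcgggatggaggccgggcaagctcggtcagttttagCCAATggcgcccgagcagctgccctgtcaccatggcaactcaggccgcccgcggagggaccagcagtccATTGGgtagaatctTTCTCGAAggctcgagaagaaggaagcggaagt

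In Hspa1a the element GAAGATTC lay at -104 to -97 from the start and ATTGG at -67 to -63. Hspa1b had both at the same places, and its 250 bases were 98.8% identical to those of Hspa1a, with 3 substitutions from Hspa1a to Hspa1b (C44T, T47C and T249G, counted from 1 at the 5′ end). Hspb1 had 2 elements, at -117 to -110 and -97 to -90, and no CCAAT box. In the Hsph1 stretch shown, TTCTCGAA lay at -33 to -26. In all, 4 of 7 members had a 2-unit element (Hspa1a, Hspa1b, Hsph1 and Hspb1), as did 14.5% of the 27025 genes with a RefSeq promoter. The 3-unit form (GAANNTTC followed by NNGAA, or TTCNNGAA followed by NNTTC, so that it contains a 2-unit form) was in 0 of 7 and in 0.514% of genes. CCAAT was in 4 of 7, against 37.5% of genes, and TATAAA in 0 of 7, against 14.3%. A match is a run of letters, not a measured binding site.

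All 10 genes passed the filter on low values. With edgeR's quasi-likelihood test and Benjamini-Hochberg adjustment over the 13324 genes tested, 8 of the 10 were higher in IRI at an adjusted p under 0.05 (Hspa1a, Hspa1b, Hspb1, Hspb8, Cryab, Dnajb1, Bag3 and Hsp90aa1), where 34.5% of all genes tested were called higher. None was called lower (32.4% of all genes), and 0 were lower at an unadjusted p under 0.05. Hspa8 and Hsph1 did not pass. DESeq2 called 6 higher (33.8% of genes) and 0 lower (33.8%), with no adjusted p for Hspa1a and Hspa1b, and limma on log2(FPKM + 1) called 8 higher (47.3%) and 0 lower (24.0%). The median log2 fold change of the 10 was 1.70, beside 0.05 over all genes tested. Without IRI replicate 1, 6 were called higher (34.0% of all genes), 1 lower, Hspa8 (32.4% of all genes), and 3 not, with a median of 1.14 beside 0.04. Without both this library and sham replicate 3, 7 were higher (33.0% of genes) and 1 lower (33.0%). In FPKM, every IRI library lay above every sham library for 7 of the 10, which held for 36.7% of genes. IRI replicates 2 to 5 lay above every sham library for 7 (41.9% of genes) and below for 1, Hspa8 (19.3%). After TMM scaling, which sets libraries to a common trimmed mean, all 5 IRI libraries lay above every sham library for 4 (26.0% of genes).

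**Figure D1:**
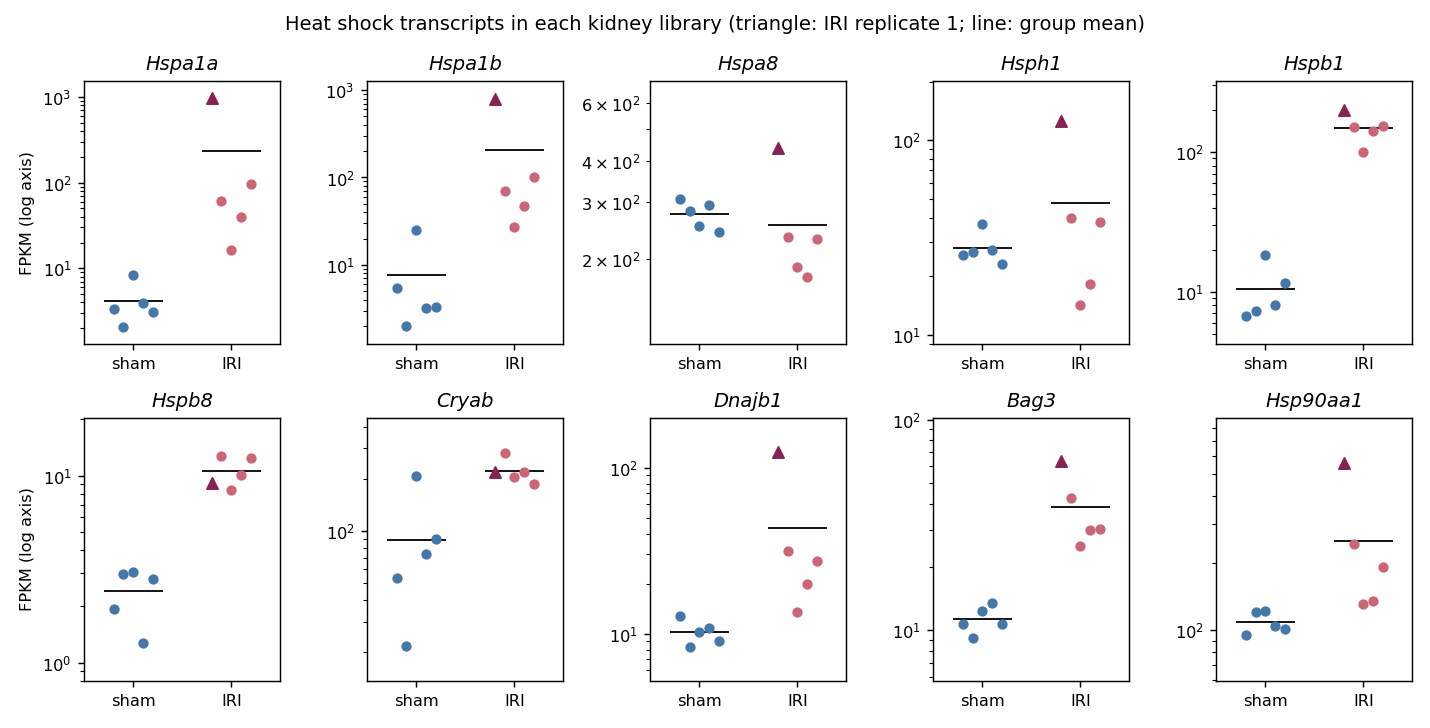
FPKM (log axis) of each heat shock gene in 5 sham and 5 IRI libraries; points are libraries, the triangle is IRI replicate 1 and lines are group means. IRI replicate 1 is the highest of all 10 libraries for 8 of the 10 genes; for Hspb8 and Cryab it lies among the other IRI libraries.

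Among the HSP70 genes, the inducible pair had the highest fold changes of the 10 genes over all libraries and the constitutive Hspa8 was not called; without IRI replicate 1, Hspb1 (log2 fold change 3.42) stood level with Hspa1a (3.41). Hspa1a (ENSMUSG00000091971, GRCm39 chromosome 17, 35188166 to 35191132, minus strand) stood at 3.31, 2.07, 8.36, 3.93 and 3.11 FPKM in sham replicates 1 to 5 and at 965.92, 61.68, 16.28, 39.84 and 97.29 FPKM in IRI replicates 1 to 5. Every IRI library was above every sham library, and IRI replicate 1 was far above the others. The mean was 4.16 ± 2.44 FPKM in sham (SD, n = 5) and 236 ± 409 FPKM in IRI (SD, n = 5). In edgeR's test the log2 fold change was 5.69 ± 1.14 (SE, adjusted p = 8.33e-04), and without IRI replicate 1 it was 3.41 ± 0.48 (adjusted p = 6.64e-05), with 53.8 ± 34.4 FPKM in the remaining 4 IRI libraries.

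Hspa1b (ENSMUSG00000090877, chromosome 17, 35175412 to 35178214, minus strand) encodes nearly the same protein. It stood at 5.40, 1.98, 24.82, 3.24 and 3.29 FPKM in sham and at 792.61, 69.82, 27.25, 46.82 and 100.39 FPKM in IRI. The IRI libraries kept the order they had for Hspa1a, and sham replicate 3 came close to IRI replicate 3 in FPKM and was above it after TMM scaling. In edgeR's test the log2 fold change was 4.60 ± 1.10 (SE, adjusted p = 0.00283), 2.70 ± 0.66 without IRI replicate 1 (adjusted p = 0.00328) and 5.73 without sham replicate 3. Of the 150-base windows of the transcripts, 39.7% for Hspa1a and 40.5% for Hspa1b also occur in another gene, mostly the other of the pair (GENCODE M21 transcripts), so how reads were split between them is uncertain; with their counts summed the log2 fold change was 5.10 (edgeR, adjusted p = 0.00160).

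Hspa8 (ENSMUSG00000015656, chromosome 9, 40712280 to 40721383, plus strand) encodes the constitutive HSC70 and had the highest sham level of the 10 genes per length. It stood at 304.42, 280.51, 252.54, 292.50 and 242.44 FPKM in sham and at 436.39, 234.49, 189.82, 176.59 and 231.12 FPKM in IRI. IRI replicate 1 was above every sham library and the other 4 IRI libraries were below every sham library. Over all 10 libraries the log2 fold change was -0.34 ± 0.25 (SE, edgeR adjusted p = 0.242). Without IRI replicate 1 it was -0.68 ± 0.13, a called decrease (edgeR adjusted p = 5.13e-04). Windows shared with other genes, mostly Gm15459, made up 55.4% of the Hspa8 transcript, so its counts carry the same kind of uncertainty.

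Within each library, the balance between inducible and constitutive HSP70 does not depend on how libraries are scaled. For every 100 Hspa8 counts there were 0.967 to 8.69 counts of Hspa1a and Hspa1b together in sham, and 271, 37.5, 15.3, 32.8 and 57.3 in IRI replicates 1 to 5. The groups did not overlap, and inducible outnumbered constitutive counts only in IRI replicate 1. The log2 ratio was higher in IRI by 4.51 (exact permutation test, two-sided, every split of 5 against 5 libraries enumerated, adjusted p = 0.0159 over 8 pairs, where the smallest raw p possible is 0.00794), and by 3.90 without IRI replicate 1. The ratio of Hspa1a to Hspa1b differed by 0.22 on the log2 scale with overlapping groups (exact permutation test, adjusted p = 0.707), so a difference between the copies was not detected. All 8 pairs were chosen with earlier results of these data known, so their p-values are not independent evidence.

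**Figure D2:**
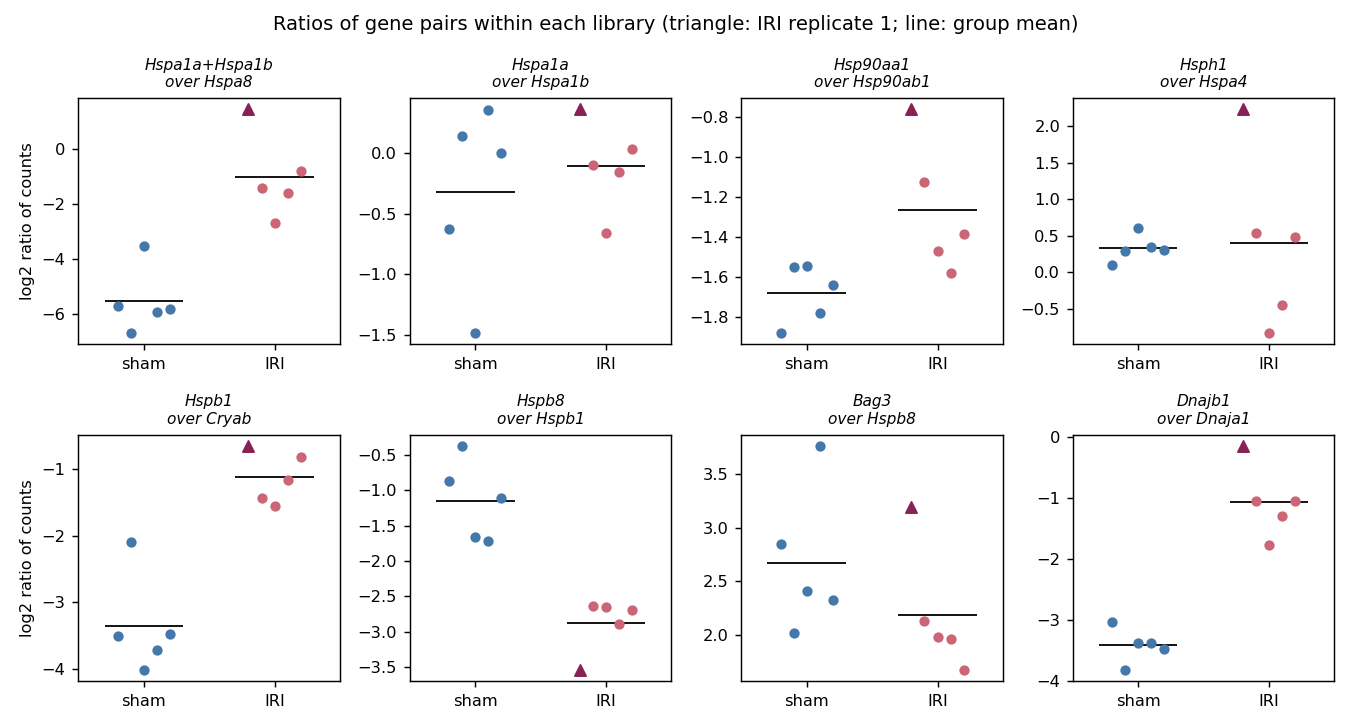
Log2 ratio of counts of 2 genes within each library, in 8 panels, one for each pair; points are libraries, the triangle is IRI replicate 1 and lines are group means. Sham and IRI separate without overlap for Hspa1a plus Hspa1b over Hspa8, Hspb1 over Cryab, Hspb8 over Hspb1 and Dnajb1 over Dnaja1.

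Of the 2 genes for nucleotide exchange factors of HSP70, Bag3 was called higher and Hsph1 was not called. Hsph1 (ENSMUSG00000029657, chromosome 5, 149537752 to 149559841, minus strand) encodes HSP110, which releases ADP from HSP70. It stood at 25.80, 26.54, 37.29, 27.26 and 23.12 FPKM in sham and at 126.01, 40.03, 14.31, 18.25 and 38.13 FPKM in IRI. The IRI libraries lay on both sides of the sham range, with replicates 3 and 4 below it. Hsph1 had a log2 fold change of 0.56 ± 0.51 (SE, edgeR adjusted p = 0.344), and its sign turned, to -0.30 ± 0.28 without IRI replicate 1 (adjusted p = 0.354). Its ratio to Hspa4, a related HSP110 gene, differed by 0.06 on the log2 scale (exact permutation test, adjusted p = 0.921) and by -0.39 without IRI replicate 1.

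Bag3 (ENSMUSG00000030847, chromosome 7, 128125340 to 128148705, plus strand) encodes a co-chaperone that links HSP70 to small heat shock proteins and to selective autophagy. It stood at 10.69, 9.21, 12.41, 13.43 and 10.77 FPKM in sham and at 63.82, 42.33, 25.24, 29.93 and 30.31 FPKM in IRI. All 5 IRI libraries lay above all sham libraries, before and after TMM scaling. Bag3 rose by a log2 fold change of 1.54 ± 0.25 (SE, edgeR adjusted p = 1.99e-04) and 1.22 ± 0.15 without IRI replicate 1 (adjusted p = 2.33e-05). The ratio of Bag3 to its partner Hspb8 differed by -0.48 on the log2 scale, with overlap (exact permutation test, adjusted p = 0.370), by -0.73 without IRI replicate 1 (adjusted p = 0.0635) and by -0.21 without sham replicate 4.

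Dnajb1 (ENSMUSG00000005483, chromosome 8, 84334822 to 84339282, plus strand) encodes HSP40, the stress-inducible J-domain partner that stimulates the ATPase of HSP70. It stood at 12.79, 8.30, 10.25, 10.81 and 9.03 FPKM in sham and at 124.95, 31.67, 13.42, 19.99 and 27.24 FPKM in IRI. In FPKM, IRI replicate 3 was barely above the highest sham library, and after TMM scaling it was below it, so that the groups overlapped. Dnajb1 rose by 1.897 ± 0.546 on the log2 scale (SE, edgeR adjusted p = 0.00855) and 0.89 ± 0.21 without IRI replicate 1 (adjusted p = 0.00299). Dnaja1, another J-domain gene, went the other way, at -0.84 ± 0.29 (edgeR adjusted p = 0.0233) and -1.29 without IRI replicate 1 (adjusted p = 2.25e-06). Leaving out any 1 of IRI replicates 2 to 5 instead ended this call for Dnaja1 (edgeR adjusted p of 0.0517 to 0.0543). Its own IRI replicate 1 value, 51.05 FPKM, was above the sham range of 37.42 to 43.65 FPKM while the other 4 lay between 17.01 and 24.19 FPKM. The log2 ratio of Dnajb1 to Dnaja1 was higher in IRI by 2.36 without overlap (exact permutation test, adjusted p = 0.0159), and by 2.13 without IRI replicate 1.

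The 3 small heat shock protein genes kept nearly the same fold changes without IRI replicate 1. Hspb1 (ENSMUSG00000004951, chromosome 5, 135916773 to 135918417, plus strand) encodes HSP27, a chaperone that also binds actin filaments. It stood at 6.72, 7.30, 18.32, 8.08 and 11.57 FPKM in sham and at 201.40, 149.83, 99.87, 141.29 and 152.35 FPKM in IRI. Every IRI library was more than 5-fold above the highest sham library. Hspb1 rose by a log2 fold change of 3.60 ± 0.29 (SE, edgeR adjusted p = 9.09e-07) and 3.42 ± 0.26 without IRI replicate 1 (adjusted p = 5.71e-07). Of its transcript windows, 36.6% are shared with the pseudogene Hsp25-ps1.

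Hspb8 (ENSMUSG00000041548, chromosome 5, 116546550 to 116560923, minus strand) encodes HSP22, which acts in a complex with BAG3. It stood at 1.93, 2.98, 3.06, 1.28 and 2.81 FPKM in sham and at 9.14, 12.72, 8.36, 10.05 and 12.43 FPKM in IRI. Groups were apart, and IRI replicate 1 was the second lowest of the IRI libraries. Hspb8 rose by a log2 fold change of 1.86 ± 0.22 (SE, edgeR adjusted p = 1.41e-05) and 1.88 ± 0.23 without IRI replicate 1 (adjusted p = 2.24e-05). The rise was smaller than that of Hspb1: the log2 ratio of Hspb8 to Hspb1 differed by -1.74 between IRI and sham, without overlap (exact permutation test, adjusted p = 0.0159).

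Cryab (ENSMUSG00000032060, chromosome 9, 50662625 to 50667936, plus strand) encodes αB-crystallin, a small heat shock protein of muscle, lens and kidney medulla. It stood at 53.38, 21.84, 206.61, 74.12 and 89.98 FPKM in sham and at 220.23, 281.66, 204.36, 220.30 and 187.41 FPKM in IRI. The IRI libraries were close together, and sham replicate 3 lay among them while the other 4 sham libraries were lower. For Cryab the log2 fold change was 1.09 ± 0.43 (SE, edgeR adjusted p = 0.0402). It was 1.66 without sham replicate 3 (adjusted p = 8.02e-04), and the call was lost in 7 of 10 fits that left out 1 library, among them that without IRI replicate 1 (1.06, adjusted p = 0.0573). In sham replicate 3 the summed FPKM of 5 collecting duct principal cell genes was 454, against 153 to 212 in the other sham libraries and 246 to 604 in IRI. Of these, Aqp2, the vasopressin-regulated water channel, ordered the 5 sham libraries as Cryab did (110.79, 80.69, 326.51, 125.04 and 137.49 FPKM), and so did Fxyd4. Aqp3, Scnn1g and Avpr2 did not, and Scnn1g was highest in sham replicate 2 (15.37 FPKM), where Cryab was lowest. Aqp2 alone made up most of the sum in sham replicate 3. These orders were compared after the values were seen. The part of collecting duct content in the Cryab result was not tested. Skeletal muscle markers summed to 0.55 to 1.42 FPKM in all libraries. Cryab overlaps Hspb2 on the opposite strand by 1030 bases, and the submitters' notes do not say whether counting used strand; Hspb2 had 32 to 118 counts. The log2 ratio of Hspb1 to Cryab was higher in IRI by 2.24 without overlap (exact permutation test, adjusted p = 0.0159).

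Hsp90aa1 (ENSMUSG00000021270, chromosome 12, 110657039 to 110669162, minus strand) had the smallest fold change of the called members. It stood at 94.98, 120.18, 122.41, 104.83 and 101.28 FPKM in sham and at 558.40, 243.61, 131.64, 135.52 and 191.12 FPKM in IRI. Every IRI library exceeded every sham library in FPKM, replicates 3 and 4 by little, and the groups overlapped after TMM scaling. Over all libraries its log2 fold change was 1.00 ± 0.38 (SE, edgeR adjusted p = 0.0327) and 0.41 ± 0.18 without IRI replicate 1, where the call was lost (adjusted p = 0.0611). It was also lost without sham replicate 1, 4 or 5 (adjusted p = 0.0605, 0.0549 and 0.0584). Windows shared with other genes, mostly Gm12346, made up 36.2% of its transcript.

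The constitutive paralogue Hsp90ab1 was the more abundant of the pair, at 412.56 to 471.40 FPKM in sham and 477.38 to 1239.34 FPKM in IRI, and was not called (log2 fold change 0.44 ± 0.25, edgeR adjusted p = 0.142), though it was with library totals in place of TMM (0.67, adjusted p = 0.0170). Its log2 fold change was 0.09 without IRI replicate 1 (edgeR adjusted p = 0.535). The log2 ratio of Hsp90aa1 to Hsp90ab1 was higher in IRI by 0.41 with overlapping groups (exact permutation test, adjusted p = 0.0381). It ranged from 0.29 to 0.49 when 1 library was left out, and passed the threshold in 4 of those 10 cases.

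**Figure D3:**
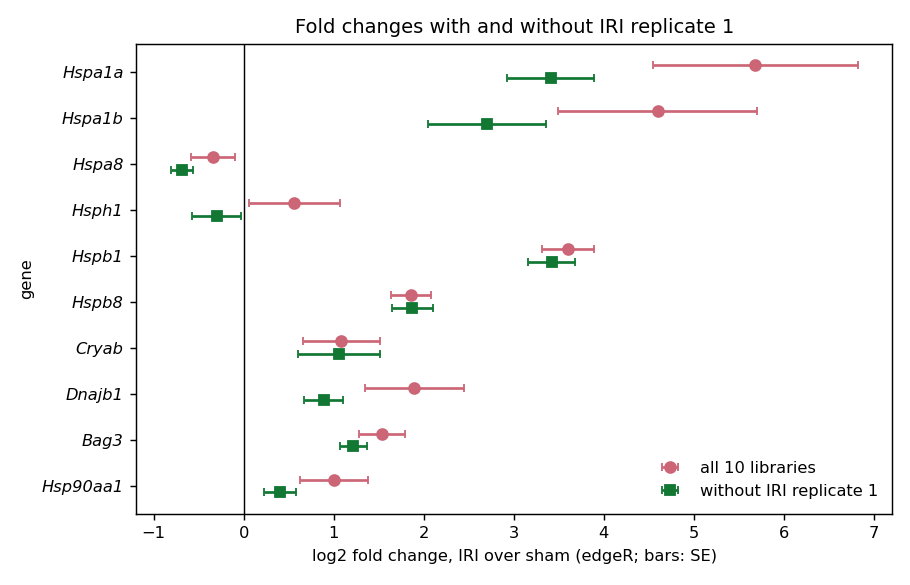
Log2 fold change of each heat shock gene, IRI over sham (edgeR; bars are SE), with all 10 libraries (circles) and without IRI replicate 1 (squares). Hspb1, Hspb8 and Cryab stay in place; Hspa1a moves from 5.69 to 3.41 and Hsph1 from 0.56 to -0.30.

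For most of the 10 genes the same IRI library was the highest, by a margin that varied between genes. IRI replicate 1 was the highest IRI library for 8 of the 10, all but Hspb8 and Cryab, where 16.2% of all genes tested had their highest IRI value in it. It was more than 2-fold above every other IRI library for 5 of them, Hspa1a, Hspa1b, Hsph1, Dnajb1 and Hsp90aa1, against 1.22% of genes, and more than 1.5-fold above for 7, against 3.11%. Summed over the 10 genes, counts scaled to the library total (CPM) were 2055 ± 180 in sham (SD, n = 5), 11190.2 in IRI replicate 1 and 2764 ± 665 in IRI replicates 2 to 5 (SD, n = 4). Hspa1a and Hspa1b together made up 5088 CPM of that in IRI replicate 1 and 124.7 to 570.1 CPM in the others, against 11.7 to 94.4 CPM in sham. The median log2 difference of the 10 genes from the sham mean was 2.32, 1.70, 1.11, 1.25 and 1.12 in IRI replicates 1 to 5. IRI replicate 3 was the lowest IRI library in FPKM for 8 of the 10 genes, all but Hspa8 and Cryab, against 21.5% of all genes tested.

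**Figure D4:**
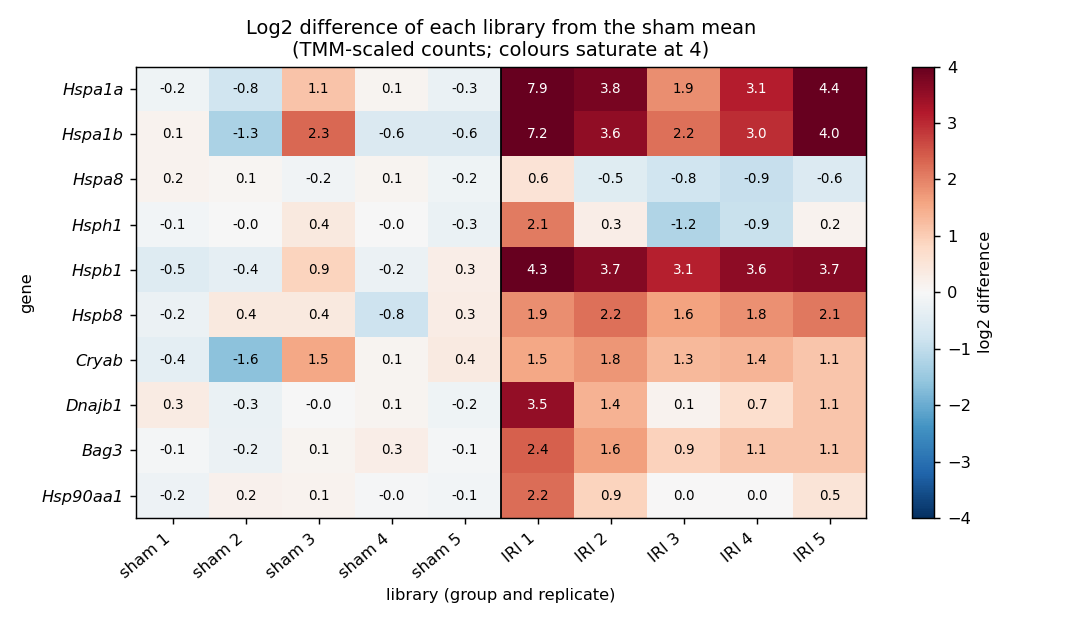
Log2 difference of each heat shock gene in each library from the sham mean (TMM-scaled counts), as colour and printed value; columns are libraries. All genes but Hspa8 and Hsph1 are above 0 in all 5 IRI columns, Dnajb1 and Hsp90aa1 by little in IRI replicate 3; Hspa8 is below 0 in IRI replicates 2 to 5, and sham replicate 3 is high for Hspa1b and Cryab.

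Several other measures differed in IRI replicate 1. Besides the mitochondrial rRNA and proximal tubule values above, 7 immediate early genes, transcription factor genes induced within minutes by stress, summed to 731 FPKM in it against 130 to 245 FPKM in IRI replicates 2 to 5 and 18.0 to 56.9 FPKM in sham. Smooth muscle and pericyte genes summed to 71.0 FPKM, against 171 to 243 FPKM in the other IRI libraries. Neutrophil genes summed to 102 FPKM, against 19.6 to 71.9 FPKM, and S100a8, S100a9 and Retnlg made up most of that sum. These genes and Cxcr2 were highest in it among the IRI libraries, whereas Csf3r was lowest, at 1.09 against 1.45 to 4.36 FPKM. Monocyte and macrophage genes summed to 16.27 FPKM in it, against 37.99 to 56.67 FPKM in IRI replicates 2 to 5. In sham that sum was 28.4 to 44.61 FPKM. Of that list, Adgre1 and Itgam were lower in IRI replicate 2 than in IRI replicate 1. The part of these differences in the heat shock values of that library was not tested; the results without it are given with each gene. In sham, replicate 3 was the highest sham library for 7 of the 10 genes, as it was for 33.2% of all genes tested.

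**Figure D5:**
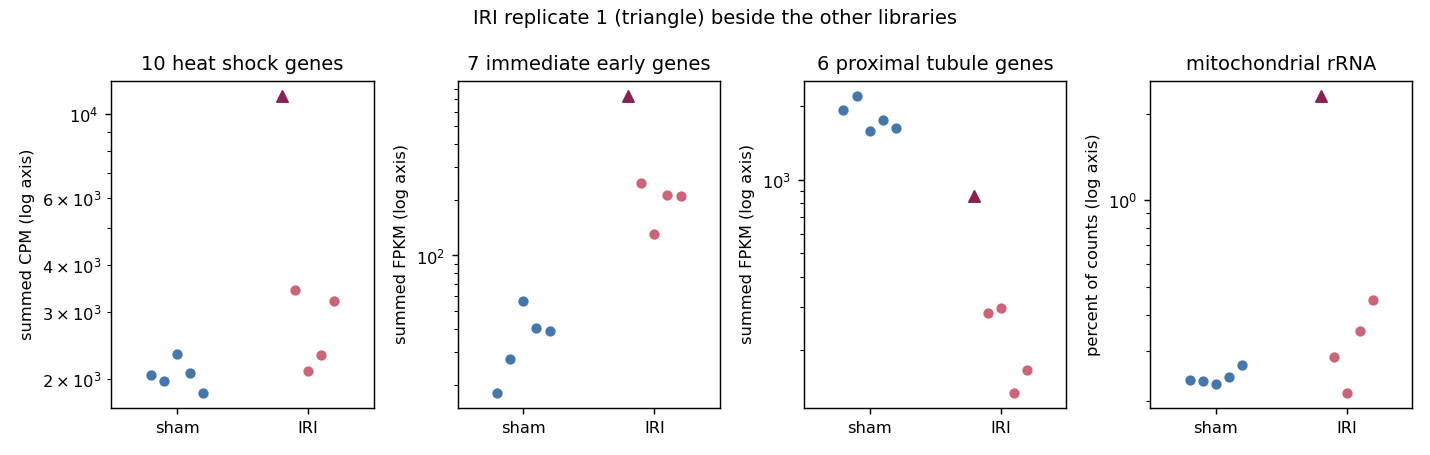
Values by library on log axes: summed CPM of the 10 heat shock genes, summed FPKM of 7 immediate early and 6 proximal tubule genes, and mitochondrial rRNA as percent of counts. Points are libraries; IRI replicate 1 (triangle) is the highest of the 10 libraries in 3 panels and lies between sham and the other IRI libraries for proximal tubule genes.

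Over 8 lists of 63 further genes of the chaperone network, 58 were tested and edgeR called 16 higher and 18 lower, beside 34.5% higher and 32.4% lower over all genes tested. Leaving out IRI replicate 1 gave 16 higher and 22 lower. Scaling by library totals instead of TMM, which raised log2 fold changes by a median of 0.25, gave 24 and 13, and called 47.4% of all genes higher and 23.6% lower. Of 7 other cytosolic HSP70 and HSP110 genes, 6 were tested, of which Hspa14, a ribosome-associated HSP70, was higher (0.47 ± 0.08, adjusted p = 1.67e-04, edgeR), Hspa12a was lower (-0.59 ± 0.09, adjusted p = 9.85e-05) and 4 were not called. Hspa4 was at 0.01 ± 0.09 (adjusted p = 0.933), a value whose sign depended on the scaling; with library totals it was called higher at 0.26 (adjusted p = 0.0233). Of 9 other J-domain genes, 3 were higher, among them Dnajb4 (1.07) and Dnajb5 (0.72), Dnaja1 was lower and 5 were not called, including Dnaja2 at -0.14; without IRI replicate 1, 2 were lower. Of 7 other BAG and HSP70 co-chaperone genes, 4 were higher and 2 lower: Bag2, an inhibitor of the ubiquitin ligase CHIP, was at 1.20, Bag5 at 0.59, and St13, which stabilises ADP-bound HSP70, at -0.54. Stub1, which encodes CHIP, was not called (-0.12). Of 6 other small heat shock protein genes, 3 were tested and Hspb7 was called higher (1.12 ± 0.15, edgeR adjusted p = 3.73e-05); Hspb2 was at 0.32 and not called.

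Among 12 genes of the HSP90 machinery, 3 were higher and 6 lower, beside 34.5% and 32.4% of all genes tested. Fkbp5, a co-chaperone of steroid receptors and a glucocorticoid-induced gene, was higher by 2.12 ± 0.15 (log2 fold change, edgeR adjusted p = 3.69e-07), whereas Fkbp4, its antagonist on those receptors, was at -1.16 ± 0.10 (adjusted p = 1.95e-06). Chordc1, a stress-regulated HSP90 co-chaperone, was at -1.04 and Stip1, the adaptor between HSP70 and HSP90, at -0.29 ± 0.11 (edgeR adjusted p = 0.0291). The Stip1 call was lost in 6 of the 10 fits that left out 1 library, and with library totals Stip1 stood at -0.05.

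Of 6 heat shock factor and binding protein genes, 5 were tested, 3 were lower and 2 were not called; with library totals 1 was lower and 1, Hsf2, higher. Hsf1 was at -0.42 ± 0.10 (log2 fold change, edgeR adjusted p = 0.00257), and at -0.17 with library totals (adjusted p = 0.133), where the call was lost. Hsbp1, which encodes a binding protein that restrains HSF1, was at -0.33, and -0.07 with library totals, and its relative Hsbp1l1 was at -1.03. Hsf2 was not called with TMM (0.08) and stood at 0.33 with library totals (adjusted p = 0.0140). Of 8 other HSF1 target genes, 4 were higher, 1 lower and 3 not called, beside 34.5% higher and 32.4% lower over all genes tested; without IRI replicate 1, 4 were higher and 2 lower. Zfand2a, an arsenite- and heat-inducible proteasome-associated gene, was higher by 2.19 ± 0.21 (edgeR adjusted p = 3.00e-06) and by 2.02 without IRI replicate 1; Ier5, an activator of HSF1, by 1.98; and Serpinh1, the collagen chaperone HSP47, by 0.64. Ubb, a polyubiquitin gene, was not called (-0.13), and without IRI replicate 1 it was called lower (-0.32, edgeR adjusted p = 0.0357).

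Of 8 mitochondrial chaperone genes, 4 were lower and 4 did not pass, beside 32.4% of all genes tested called lower, and the median log2 fold change was -0.44; without IRI replicate 1, 6 were lower and the median was -0.74. Trap1, the mitochondrial HSP90, was at -1.36, Hscb, an iron-sulphur cluster co-chaperone, at -1.14, and Dnaja3, a mitochondrial J-domain protein, at -1.02. Hspd1, which encodes HSP60, was at -0.44 ± 0.28 (edgeR adjusted p = 0.179), and at -0.82 without IRI replicate 1 (adjusted p = 9.45e-04). Its partner Hspe1 was at -0.25 (adjusted p = 0.531) and -0.67 without that library (adjusted p = 0.0364). The summed FPKM of the proximal tubule genes, cells rich in mitochondria, was lower in every IRI library than in every sham library, and its part in the mitochondrial chaperone values was not tested.

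Of the 7 immediate early genes, 6 passed the filter; Atf3 reached 1 FPKM in only 2 of the sham libraries and so passed through the IRI libraries, and no count of calls is read from this list. Atf3 was higher by 5.02 ± 0.57 (log2 fold change, edgeR adjusted p = 1.07e-05), Fos by 3.64 ± 0.69 (adjusted p = 5.50e-04) and Jun by 2.93 ± 0.57 (adjusted p = 6.26e-04). Without IRI replicate 1 they were 4.32, 2.56 and 1.91, still called.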

How the data were processed

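Per the labels' protocols, poly(A) RNA libraries came from 1 µg of total RNA, read as pairs of 150 bases. The submitters' processing notes name cutadapt 1.9.1, HISAT2 2.0.1, HTSeq 0.6.1 and build GRCm39, with no settings or strand. The authors deposited 1 table of whole-number counts and FPKM per gene for each library; the deposited FPKM equals count per kilobase of exonic length, scaled to the library's total count, for 100% of values (within 0.005 or 0.1%).

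Genes that reached 1 FPKM in at least 5 libraries (13324, over 98.9% of counts in each library) were tested with edgeR 4.0.16 (quasi-likelihood, TMM, R 4.3.3), Benjamini-Hochberg adjusted, called at an adjusted p under 0.05; SE is the log2 fold change over the root of F. The fit was also run on simulated counts with few changed genes, sham spread and no outlying library. These data differ on each point, so that run does not bear on the calls given here. Ratios used log2 counts plus 0.5 and an exact permutation test. Sequence windows and promoters are GRCm38 and were joined by symbol; their coordinates differ from the GRCm39 ones. Alternatives used other scalings, filters and thresholds, DESeq2 1.42.0, limma 3.58.1, a replicate block and 1 library left out. Leaving out IRI replicate 1 and sham replicate 3 together was chosen after the data were seen. Correlations between libraries showed no pairing by replicate number. Whether same-numbered samples were handled together is not known from the sources used here.

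Members, gene lists and pairs were chosen with earlier results of these data known. Named genes are the members, 8 partners, and of each list the 3 called genes of largest change and the most abundant uncalled gene. No 2 libraries agreed within counting noise.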

Additional observations from a re-analysis of the deposited data

Results flagged for a closer look

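In each group of 5 libraries, the highest and lowest values of 38 sets (the 10 heat shock genes, their partners and the summed level, per group) were examined for a library set apart from the rest by more than 71% of the group's range, Dixon's limit at the 95% level, which chance alone passes in about 1 group in 20. There were 11 such values, 9 of them from IRI replicate 1, which are readings of the same library and not separate outliers. Among the heat shock genes, IRI replicate 1 stood apart for Hspa1a at 965.92 FPKM, Hspa1b at 792.61 FPKM, Hspa8 at 436.39 FPKM, Hsph1 at 126.01 FPKM, Dnajb1 at 124.95 FPKM and Hsp90aa1 at 558.4 FPKM. It also stood apart for the partner genes Hsp90ab1, at 1239.34 FPKM, and Dnaja1, at 51.05 FPKM, and for the summed level of the 10 genes, at 11190.2 CPM. In sham, replicate 3 stood apart for Hspa1b, at 24.82 FPKM, and replicate 5 was low for Hsp90ab1, at 412.56 FPKM. Hspb1, Hspb8, Cryab and Bag3 had no library set apart in either group.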

How the results depend on the processing

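The number of heat shock genes called higher was 6 to 8 under every alternative run. DESeq2 gave 6. It gave an adjusted p for 13309 of the 13324 genes but none for Hspa1a and Hspa1b, so these 2 could not be called. Leaving out 1 library at a time gave 6 to 8 higher and 0 to 1 lower; leaving out IRI replicate 1 and sham replicate 3 together gave 7 higher and 1 lower. Same-numbered sham and IRI libraries correlated at -0.23 to 0.05, and no library correlated best with its own number. The replicate block gave 7 higher and 0 lower, where 31.7% and 30.7% of all genes were called: Hsp90aa1 was lost (0.71, adjusted p = 0.103), and list genes called lower among BAG co-chaperones went from 2 to 1.

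Without IRI replicate 1 and sham replicate 3, Hsph1 stood at -0.22, Hspa4 at -0.028 and Hsf2 at -0.036. With 4 libraries against 4, none of the 8 pairs passed the threshold in the exact test (smallest adjusted p 0.0571). The log2 ratios were 4.40 for Hspa1a plus Hspa1b over Hspa8, -0.19 for Hspa1a over Hspa1b and 0.32 for Hsp90aa1 over Hsp90ab1 (exact test, adjusted p = 0.0762). They were -0.33 for Hsph1 over Hspa4, 1.96 for Hspb1 over Cryab, -1.70 for Hspb8 over Hspb1 and 2.14 for Dnajb1 over Dnaja1. Leaving out 1 library, the log2 ratios of Hspa1a to Hspa1b ranged from -0.07 to 0.39, of Hspa1a plus Hspa1b to Hspa8 from 3.90 to 5.02, of Hspb1 to Cryab from 2.07 to 2.55, of Hspb8 to Hspb1 from -1.88 to -1.54, of Dnajb1 to Dnaja1 from 2.13 to 2.54, of Hsp90aa1 to Hsp90ab1 from 0.29 to 0.49 and of Hsph1 to Hspa4 from -0.39 to 0.37; log2 fold changes ranged from -0.30 to 0.80 for Hsph1 and from -0.030 to 0.059 for Hspa4. The ratios kept their direction and side of the threshold when 1 library was left out, except Hspa1a to Hspa1b and Hsph1 to Hspa4, which changed sign, and Hsp90aa1 to Hsp90ab1, which lost its call in 6 of 10 cases; that of Bag3 to Hspb8 ranged from -0.73 to -0.21.

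Uncalled values that changed sign with scaling were Hspa4 (-0.012 with RLE factors and -0.012 with DESeq2), Dnaja2 (0.11 with library totals, 0.11 with limma at a pseudocount of 1 and 0.11 at 0.1), Stub1 (0.14, 0.12 and 0.13) and Ubb (0.11, 0.095 and 0.095). With library totals, calls higher went from 1 to 2 among other HSP70 genes and from 3 to 5 among J-domain genes. They went from 1 to 2 among small heat shock protein genes and from 3 to 5 in the HSP90 machinery. Among heat shock factors, calls higher went from 0 to 1 and calls lower from 3 to 1. Limma gave the same counts for these lists. Over all genes tested, calls higher went from 34.5% to 47.4% with library totals and calls lower from 32.4% to 23.6%. With limma on log2(FPKM + 1) these shares were 47.3% and 24.0%. BAG co-chaperones called lower went from 2 to 1 with library totals, limma or no filter. Under DESeq2 the J-domain genes called lower went from 1 to 2, and leaving out 1 library gave 0 to 2. The stricter filter, 5 FPKM in at least 5 libraries, removed Hspa12a, Hsf1 and Hsbp1l1 from the test. Calls lower thereby went from 1 to 0 among HSP70 genes and from 3 to 1 among heat shock factors. Without IRI replicate 1 and sham replicate 3, HSF1 target genes called lower went from 1 to 3 and mitochondrial chaperones from 4 to 7. The 2-unit heat shock element was in 4 of 7 promoters and the 3-unit form in 0. Apart from the genes removed by the stricter filter, the causes of these changes were not tested.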

Other observations

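IRI replicate 3 lay at the low end of the IRI range for most of the heat shock genes. The kidney injury gene Havcr1 had its highest value in the same library, at 722.41 FPKM against 136.45 to 342.12 FPKM in the other 4, and its lowest in IRI replicate 1. Lcn2 was lowest in IRI replicate 3, at 851.7 FPKM against 1269.24 to 2225.6 FPKM. The stress-induced factor gene Atf3 ordered the IRI libraries as Dnajb1, Bag3 and Hsp90aa1 did, with 83.07, 30.68, 11.99, 18.6 and 29.84 FPKM in replicates 1 to 5 and 0.53 to 1.41 FPKM in sham. These genes were set side by side after their values were seen, over 5 libraries, and no test was made.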
